A study of Homo sapiens with 6 samples.

Results

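The binding of 3 chromatin proteins was examined at 5 genes of the plasminogen activator system, PLAU, PLAT, PLAUR, SERPINE2 and SERPINB2, out of 20033 protein-coding genes. A peak was assigned to a gene when its summit lay in the gene, as annotated by GENCODE on hg38, or within 20 kb on either side. By this rule the genes held 19 of 51530 DPF3a peaks, 16 of 46367 SMAD4 peaks and 4 of 20380 p300 peaks. Overlapping peaks formed 21 separate sites. DPF3a peaks were found at 5 of the 5 genes, SMAD4 peaks at 4 and p300 peaks at 3.

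The peaks came from ChIP-seq in 786-O, a long-used human line derived from a clear cell renal carcinoma (ccRCC), with 2 replicate libraries per factor and 6 samples in all. DPF3a, the short isoform of a SWI/SNF chromatin remodelling subunit, was pulled down through an HA tag from cells made to overexpress HA-DPF3a, after fixation with DSG and 1% formaldehyde. SMAD4, the shared transcription factor of TGF-β and BMP signalling, and p300, a histone acetyltransferase, were pulled down with 1% formaldehyde as the single fixative. Whether the SMAD4 and p300 cells overexpressed DPF3a is not given in the labels. No factor was compared between cells with and without DPF3a, so no value below shows an effect of DPF3a. The authors provided 1 list per factor for both replicates, so no value has a replicate error and no test was possible. Fixation, antibody, depth and cells cannot be told apart from the factor, and values are therefore compared within a list.

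Urokinase (uPA, encoded by PLAU) and tissue plasminogen activator (tPA, encoded by PLAT) are serine proteases that cut plasminogen to plasmin, which digests fibrin and matrix proteins. The uPA receptor (uPAR, encoded by PLAUR) holds uPA on the cell surface, where it takes part in the movement of cells through matrix. Protease nexin-1 (encoded by SERPINE2) and PAI-2 (encoded by SERPINB2) are serpins, inhibitors that trap uPA and tPA. Several genes of this system are known TGF-β and AP-1 targets in other cells, and AP-1 is the dimer of FOS and JUN proteins that recognises TGACTCA.

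The sequences at the sites on which the description turns are shown here first. Each is the plus strand of hg38, read 5′ to 3′ and clipped where an annotated exon begins. All are centred on or hold the DPF3a summit except that of the PLAUR promoter, which shows 29 bases around an AP-1 match beside the summit. Capitals mark exact matches to AP-1, TEAD, RUNX or an AP-1-like octamer, and the shorter motifs CAGAC and ACGTG are not marked. Outside PLAT, 1 site per gene was chosen by the largest product of its fold enrichment percentiles, a measure that favours sites of fewer factors and does not name the strongest site. Sites outside PLAT with an AP-1 match within 50 bp of the DPF3a summit are shown too. The sites of all 3 factors at the SERPINE2 promoter, PLAU and PLAUR were added after their values were seen. No PLAT sequence is shown.
PLAU, 16.4 kb upstream, chr10:73894667-73894817: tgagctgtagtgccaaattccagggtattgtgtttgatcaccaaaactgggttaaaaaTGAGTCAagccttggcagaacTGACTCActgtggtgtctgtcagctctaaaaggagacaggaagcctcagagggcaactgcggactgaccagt
PLAU, 11.6 kb upstream, chr10:73899486-73899636: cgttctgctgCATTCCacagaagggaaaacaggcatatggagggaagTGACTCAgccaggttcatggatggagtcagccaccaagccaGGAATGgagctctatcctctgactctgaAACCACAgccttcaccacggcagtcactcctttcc
PLAU, 2.08 kb upstream, chr10:73909050-73909176: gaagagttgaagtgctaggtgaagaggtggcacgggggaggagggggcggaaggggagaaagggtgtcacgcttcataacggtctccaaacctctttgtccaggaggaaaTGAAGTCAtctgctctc
PLAUR, 5.49 kb upstream, chr19:43675587-43675737: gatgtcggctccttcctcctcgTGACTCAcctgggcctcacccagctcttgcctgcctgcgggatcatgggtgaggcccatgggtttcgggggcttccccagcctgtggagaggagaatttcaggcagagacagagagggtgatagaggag
PLAUR promoter, chr19:43670338-43670366: tggctcggcccTGACTCAtggagttgtga
SERPINE2 promoter, chr2:224039371-224039521: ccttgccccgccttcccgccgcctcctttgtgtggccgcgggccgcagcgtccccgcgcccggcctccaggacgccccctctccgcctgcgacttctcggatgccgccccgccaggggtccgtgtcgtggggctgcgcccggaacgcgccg
SERPINE2, intron 1, chr2:224018106-224018256: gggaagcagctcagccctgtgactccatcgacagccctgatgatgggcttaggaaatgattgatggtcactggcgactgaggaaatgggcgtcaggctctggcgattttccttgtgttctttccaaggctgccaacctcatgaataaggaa
SERPINB2, 4.97 kb upstream, chr18:63882659-63882809: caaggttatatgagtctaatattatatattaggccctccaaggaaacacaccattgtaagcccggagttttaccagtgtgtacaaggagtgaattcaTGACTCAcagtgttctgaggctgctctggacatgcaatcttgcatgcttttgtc
In the first PLAU site the capitals mark 2 AP-1 matches, one on each strand, TGAGTCA being TGACTCA read from the other strand. In the PLAU site 11.6 kb upstream they mark a TEAD match (GGAATG, read as CATTCC), an AP-1 match, another TEAD match and a RUNX match (TGTGGTT, read as AACCACA). In the PLAU site 2.08 kb upstream they mark TGAAGTCA, an AP-1-like octamer. In the PLAUR and SERPINB2 sequences they mark TGACTCA. The SERPINE2 promoter and intron sequences held no match.

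The first question was whether these genes carried more peaks than other genes. The comparison was with all protein-coding genes, each with a window made in the same way. A DPF3a peak was found at 79.0% of protein-coding genes, a SMAD4 peak at 81.3% and a p300 peak at 64.7%. Among the 10142 genes whose windows were as long as those of the 5 genes, 48.3 to 104 kb, the shares were 80.8%, 84.4% and 65.8%. Having a peak of any of the factors was therefore common, and 5, 4 and 3 of 5 genes lie near what these shares give. A site shared by DPF3a and SMAD4, where the overlap covered at least 0.5 of each peak, was found at 69.1% of protein-coding genes and at 4 of the 5, all but SERPINB2. A site of all 3 factors was found at 41.4% of protein-coding genes and at SERPINE2, PLAU and PLAUR.

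The 5 genes differed among themselves in how densely they were bound. PLAT had 7 DPF3a peaks, and 91.5% of protein-coding genes had fewer. Per 100 kb of window PLAT carried 9.59 DPF3a peaks and PLAU 8.28, above 97.6% and 95% of protein-coding genes, respectively. PLAUR carried 4.65, SERPINE2 2.88 and SERPINB2 2.77 per 100 kb, the last in the middle of the range, above 55.5% of genes. In the SMAD4 list PLAU came first with 10.3 peaks per 100 kb, above 95.8% of genes. PLAT followed with 6.85, PLAUR with 4.65 and SERPINE2 with 2.88, whereas SERPINB2 had none. The activator genes PLAU and PLAT thus had the highest density in both lists, without a p300 peak at PLAT. By plain count PLAU, whose window of 48.3 kb was the shortest, stood lower. Its 4 DPF3a peaks were more than 72.6% of protein-coding genes had. PLAU and PLAT each had 5 SMAD4 peaks, and 80.35% of genes had fewer.

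**Figure D1:**
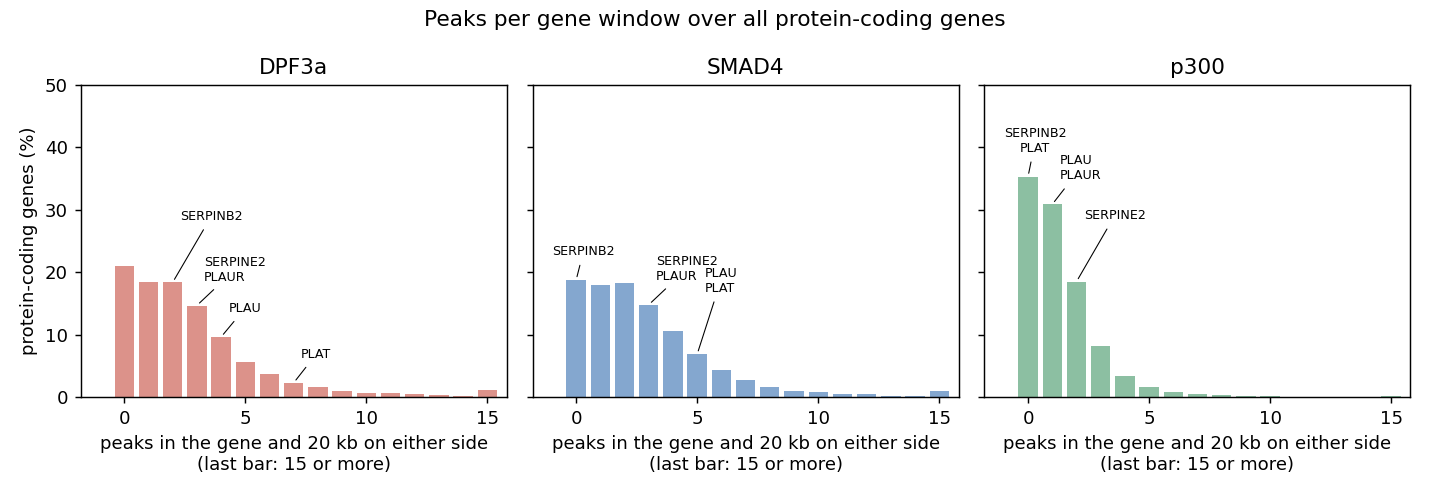
Share of protein-coding genes (%, vertical axis) with each number of peaks in the gene and 20 kb on either side (horizontal axis, the last bar holds 15 or more), for DPF3a, SMAD4 and p300. Labels mark the bar of each of the 5 genes, from SERPINB2 with 2 DPF3a peaks and none of the others to PLAT with 7 DPF3a and 5 SMAD4 peaks.

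PLAU (ENSG00000122861, chr10:73909177-73917496, plus strand, 11 exons in the canonical transcript) had 4 DPF3a peaks, 5 SMAD4 peaks and 1 p300 peak, all but 1 of them upstream of the canonical transcript start. The annotated gene begins upstream of that start because of another transcript, and distances here are from the canonical start. Fold enrichment is the height of the peak over its local background as the peak caller gives it, and the height in whole reads was recovered from the deposited values. The tallest DPF3a peak of the 5 genes was 11.6 kb upstream of PLAU, with 129 reads (exact Poisson 95% interval 108 to 153, counting error only) and a fold enrichment of 11.1. The SMAD4 peak there reached 99 reads (80.5 to 120.5) and a fold enrichment of 7.10, and the summits lay 20 bp apart. At this intergenic site DPF3a was taller than in 99.4% of its list and SMAD4 taller than in 89.9%.

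At 16.4 kb upstream of PLAU the order of the factors, by rank within their own lists, was the other way round. SMAD4 reached 197 reads (170 to 226.5) with a fold enrichment of 12.6, the tallest SMAD4 peak of the 5 genes and taller than 99.3% of the SMAD4 list. DPF3a reached 88 reads (70.6 to 108) with a fold enrichment of 7.27, taller than 96.5% of the DPF3a list. The summits lay 27 bp apart. In the sequence above, both AP-1 matches lay within 41 bp of both summits. The site also held the short SMAD motif CAGAC, on the minus strand 20 bp from the DPF3a summit and 7 bp from the SMAD4 summit.

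Within the window, the fold enrichment of SMAD4 was lower at each site nearer to the PLAU start, from 12.6 to 2.97, but its height in reads did not follow this order, and a SMAD4 peak just outside, 21.3 kb from the gene, had 6.89. The site 4.28 kb upstream had 85 DPF3a reads (67.9 to 105) with a fold enrichment of 7.36, and 113 SMAD4 reads (93.1 to 136) with 5.45. The site 2.08 kb upstream was the only one of PLAU with p300. It had 36 DPF3a reads (25.2 to 49.8), 83 SMAD4 reads (66.1 to 102.9) and 37 p300 reads (26.1 to 51), with fold enrichments of 3.15, 3.92 and 3.39. Reporter studies have long placed a PLAU enhancer at about this distance upstream, where an ETS-type element adjoins an AP-1-type octamer. The printed sequence holds TGAAGTCA 39 bp from the DPF3a summit, directly after a run of purines, and no TGACTCA within 50 bp. This octamer was searched after the sequence was seen and occurred within 50 bp of 0.775% of DPF3a summits. The last PLAU peak, of SMAD4 alone, lay in intron 1, 136 bp downstream of the start, with 62 reads (47.5 to 79.5) and a fold enrichment of 2.97.

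By fold enrichment the PLAU site 2.08 kb upstream was among the weakest of each list. Its DPF3a peak stood above 0.330% of the DPF3a list, its SMAD4 peak above 7.96% and its p300 peak above 4.02% of their lists. By height in reads, the same peaks stood above 70.0%, 83.6% and 90.3%. What separated the measures was the local background, the mean height of the ChIP library itself in the 10 kb around a peak, by which the caller divides. At the PLAU peaks it was 10.7 to 11.2 reads for DPF3a, 9.13 to 9.61 times the genome-wide level, and 1.58% of DPF3a peaks had one as high as the lowest of these. For SMAD4 it was 13.1 to 20.4 reads, 5.82 to 9.08 times the genome-wide level, with 9.02% of peaks as high, and for p300 it was 10.2 reads, 4.98 times that level, with 3.30% as high. The raised background was thus present in all 3 lists at this gene. This mean includes the reads of the peak itself and of any other peak in the same 10 kb. The backgrounds of neighbouring PLAU peaks are therefore not independent of one another or of peak height.

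Peaks farther out had a lower background. Up to 1 Mb outside the PLAU window there were 48 DPF3a peaks with a median background of 3.75 reads and a highest of 9.92, so that 0 of 48 reached the level at PLAU. The same held for 0 of 34 p300 peaks, whose highest background was 8.64 reads, and for SMAD4 5 of 43 peaks were as high. The reason for the raised background was not tested. It also set what could be found, since a DPF3a summit had to reach 33 reads at the highest background of PLAU to pass the lowest −log10 p of its list, against 11 reads at the genome-wide level. The corresponding heights were 49 against 14 reads for SMAD4 and 33 against 14 for p300.

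**Figure D2:**
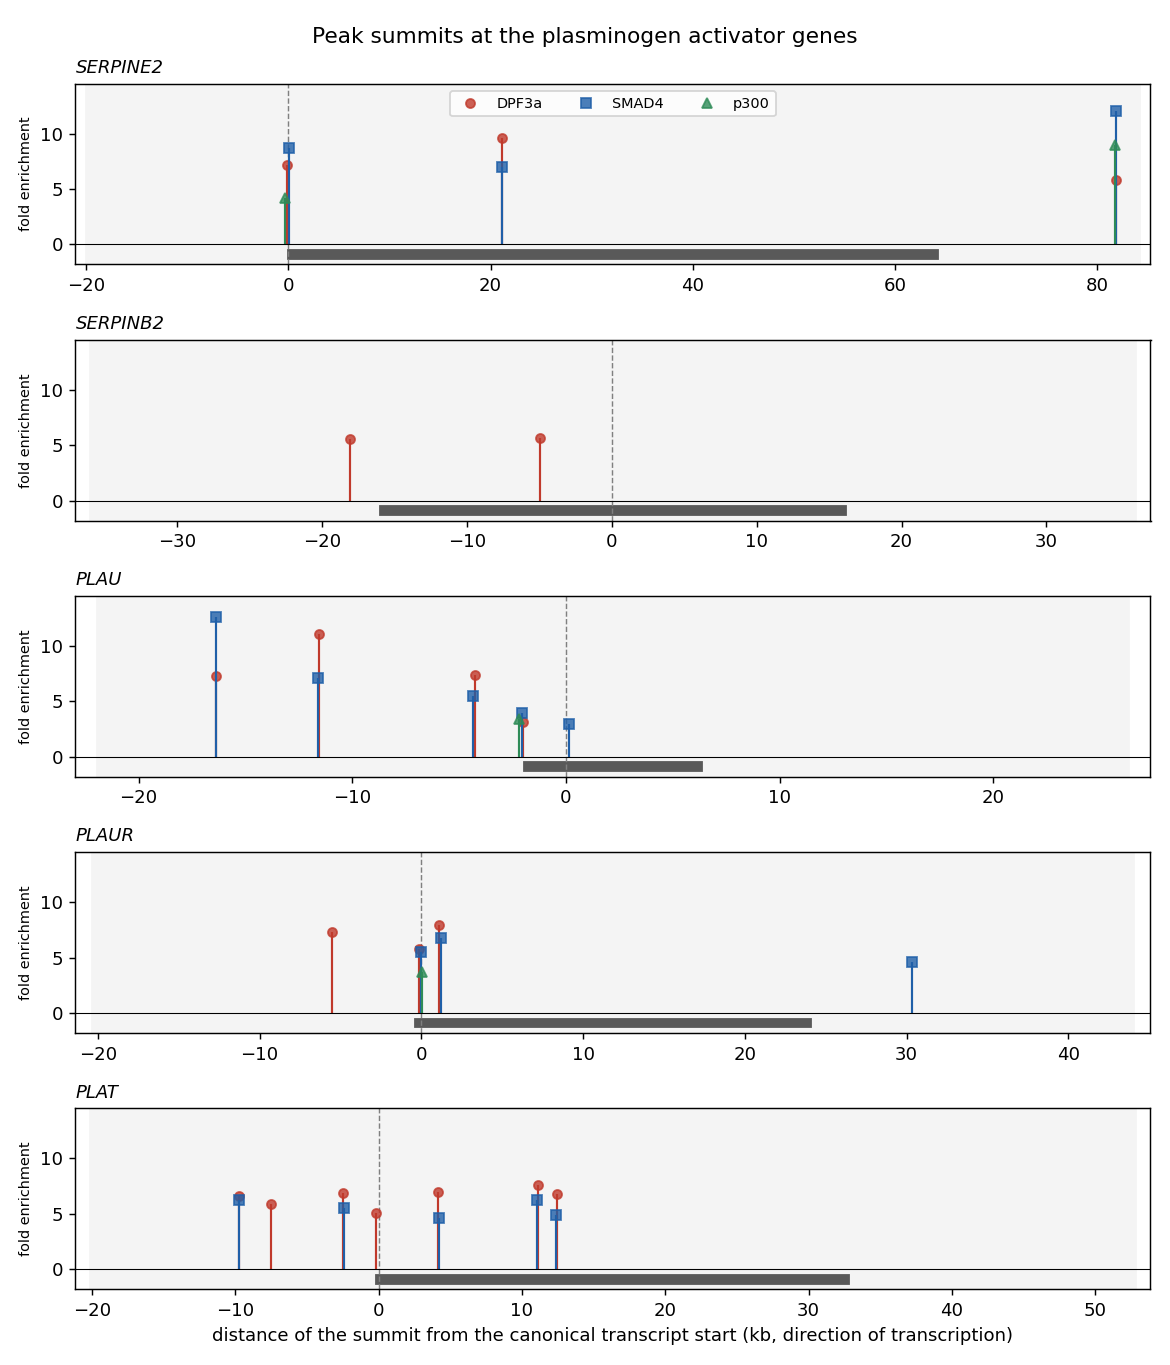
Fold enrichment (vertical axis) of each peak summit against its distance from the canonical transcript start (kb, horizontal axis, direction of transcription to the right), 1 panel per gene, with DPF3a as circles, SMAD4 as squares and p300 as triangles. Dark bars are the annotated genes and shading the searched windows. At PLAU the fold enrichment of SMAD4 is highest 16.4 kb upstream and lowest at the start. That of DPF3a is highest 11.6 kb upstream and lowest at the site 2.08 kb upstream.

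PLAT (ENSG00000104368, on chromosome 8, minus strand, 14 exons) had the most DPF3a peaks, but each was of ordinary size. The 7 DPF3a peaks had 16 to 27 reads, with a median of 21 against 25 in the whole list, and fold enrichments of 5.09 to 7.61. The 5 SMAD4 peaks had 14 to 28 reads, with a median of 22 against 39 in the whole list, and fold enrichments of 4.62 to 6.28. The local background was 1.74 to 2.84 reads for DPF3a and 2.25 to 3.68 for SMAD4, which is 1.49 to 2.43 and 1.0 to 1.64 times the genome-wide level. PLAT and PLAU, which encode enzymes of the same activity, were therefore alike in peak density and unlike in peak height in reads. Every DPF3a peak at PLAT was lower, in reads, than every DPF3a peak at PLAU, and the same held for SMAD4. At the highest PLAU background, however, a summit had to reach 33 DPF3a or 49 SMAD4 reads. Peaks of the height seen at PLAT could not have been listed at that background. By fold enrichment the 2 genes were close. The DPF3a medians were 6.77 at PLAT and 7.32 at PLAU, and the SMAD4 medians 5.54 and 5.455.

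The PLAT peaks were spread over both sides of the start. DPF3a and SMAD4 lay together 9.72 kb upstream, with 21 and 22 reads, and 2.44 kb upstream, with 21 and 17 reads. DPF3a was alone 7.51 kb upstream, with 20 reads, and in the promoter 185 bp upstream, with 16 reads. The promoter peak had the lowest fold enrichment of the PLAT peaks of DPF3a, 5.09, and SMAD4 had none there. Intron 1 held 3 further sites with both factors. These were 4.19 kb downstream of the start, with 18 DPF3a and 14 SMAD4 reads, 11.1 kb downstream, with 27 and 28 reads, and 12.4 kb downstream, with 25 and 22 reads. At the first of them the peaks touched but overlapped by less than 0.5. The SMAD4 peak there had a score of 54, and 14 reads was the least that could be listed at the genome-wide background. The p300 list held no peak in the PLAT window, where a p300 summit would have needed 14 reads at the genome-wide background.

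PLAUR (ENSG00000011422, chr19:43646095-43670547, minus strand, 7 exons) had 3 DPF3a peaks, 3 SMAD4 peaks and 1 p300 peak. Peaks of all 3 factors overlapped at its promoter, with 35 DPF3a reads (24.4 to 48.7), 56 SMAD4 reads (42.3 to 72.7) and 27 p300 reads (17.8 to 39.3). Their summits lay within 188 bp of one another, the p300 summit in coding exon 1 and the others just upstream of the canonical start, in the body of a longer annotated transcript. The fold enrichments were 5.79, 5.52 and 3.74, above 33.4%, 37.4% and 11% of their lists. In reads they stood above 68.7%, 66.4% and 65.4%, so the promoter was an ordinary site in all 3 lists by this measure.

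The sequence printed for the PLAUR promoter is the TGACTCA 57 bp from the DPF3a summit. An AP-1 element of the PLAUR promoter is known from reporter work in tumour cells. In the RefSeq promoter sequences (from 250 bases before to 50 after the start), which gave 6 entries for the 5 genes and none for PLAT, PLAUR was the only one of these genes with TGACTCA, found in 4.95% of all 35116 entries. Intron 1 of PLAUR held the strongest site of the gene by reads, 1.15 kb downstream, with 46 DPF3a reads (33.7 to 61.4) and 67 SMAD4 reads (51.9 to 85.1). The site 5.49 kb upstream had DPF3a alone, with 24 reads (15.4 to 35.7), and a TGACTCA match centred 50 bp from the summit but reaching beyond that window. A SMAD4 peak of 14 reads 30.3 kb downstream lay in exon 1 of the neighbouring gene CADM4, 16 bp from its start, and is nearer to CADM4 than to PLAUR. The score of this peak was 54, just over the authors' limit of 50.

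SERPINE2 (ENSG00000135919, chr2:223975045-224039318, minus strand, 9 exons) had 3 DPF3a, 3 SMAD4 and 2 p300 peaks in the longest window, 104 kb. At its promoter SMAD4 was strong, with 80 reads (63.4 to 99.6) and a fold enrichment of 8.65, above 77.7% of the SMAD4 list. DPF3a had 24 reads (15.4 to 35.7) and a fold enrichment of 7.18 there, and p300 26 reads (17.0 to 38.1) and 4.17. The summits were up to 438 bp apart, with SMAD4 in the untranslated part of exon 1 and the others upstream of it. The sequence printed for this promoter belongs to a GC-rich start, with 80.1% G and C in the 201 bp around the DPF3a summit against a median of 47.8% in the DPF3a list.

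The intron 1 site of SERPINE2, 21.1 kb downstream of the start, had no p300. DPF3a had 31 reads (21.1 to 44) and a fold enrichment of 9.64, above 79.7% of its list, and SMAD4 had 33 reads (22.7 to 46.3) and 7.0. The summits lay 17 bp apart, and none of the 8 searched motifs matched within 50 bp of either. The strongest p300 peak of the 5 genes was counted at SERPINE2 but lay 81.8 kb downstream of its start, in coding exon 1 of MRPL44, a gene of the mitochondrial ribosome. It had 40 reads (28.6 to 54.5) and a fold enrichment of 8.95, above 99.2% of the p300 list. SMAD4 there had 102 reads (83.2 to 124) and a fold enrichment of 12.1, above 95.7% of its list, and DPF3a 21 reads (13.0 to 32.1) and 5.82. Assigned to the nearest protein-coding start this site belongs to MRPL44, which leaves SERPINE2 with 1 p300 peak.

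SERPINB2 (ENSG00000197632, chr18:63871692-63903888, plus strand, 8 exons) had the lowest peaks. Its 2 DPF3a peaks had 11 reads (5.49 to 19.7) at 18.1 kb upstream and 12 reads (6.20 to 21) at 4.97 kb upstream of the canonical start, the latter inside a longer annotated transcript. Their percentiles by reads in the DPF3a list were 1.39 and 4.55, and 11 reads was the least that could be listed at the genome-wide background. Their scores of 59 and 63 were just over the authors' limit of 50. Neither passed a score of 100. The local background of 1.17 and 1.32 reads was at or near the genome-wide level. No SMAD4 or p300 peak was detected in the window, where a summit would have needed 14 reads at the genome-wide background of either list, and the nearest SMAD4 summit was 66586 bp from the nearer DPF3a summit. The weaker site held RUNX, TEAD and ETS (CCGGAAG) matches within 20 bp of its summit, and the other held the AP-1 match printed above, 25 bp from its summit.

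**Figure D3:**
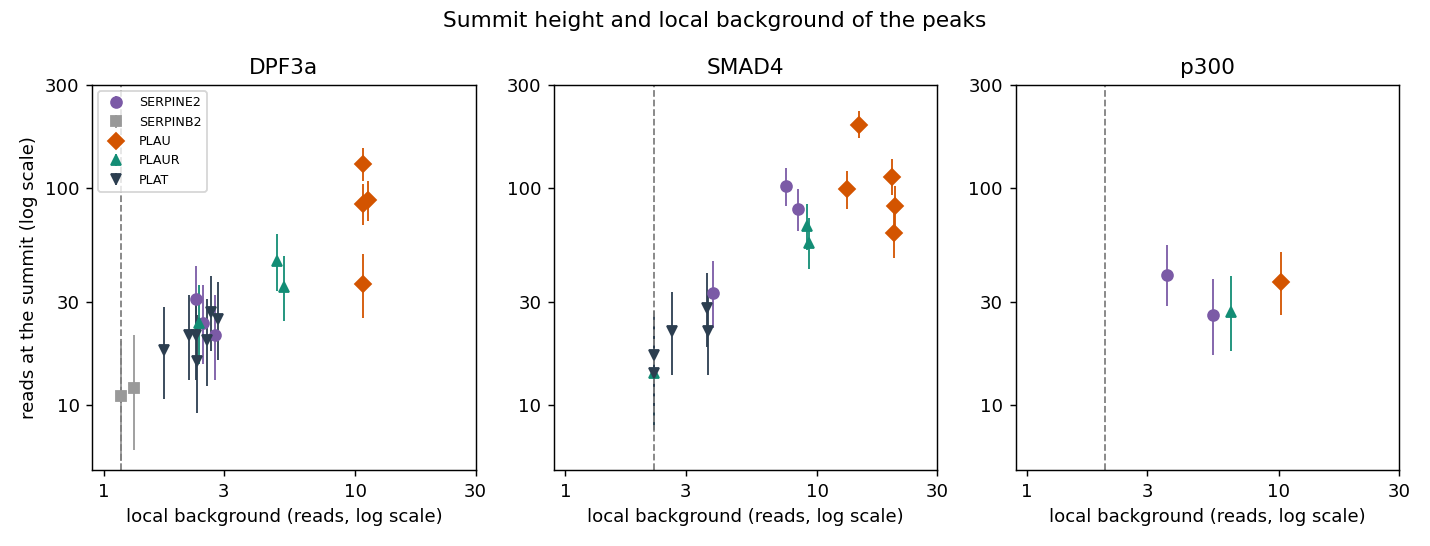
Summit height in reads (vertical axis, log scale) against local background in reads (horizontal axis, log scale) for every DPF3a, SMAD4 and p300 peak of the 5 genes. Bars are exact Poisson 95% intervals (counting error only), and the dashed line is the genome-wide background of each list. The 4 DPF3a peaks of PLAU stand apart at a background of 10.7 to 11.2 reads, and the SERPINB2 peaks lie at the lower left with 11 and 12 reads.

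How often peaks of the factors overlapped was described next. The lists come from separate libraries, and the cells may differ, so an overlap does not show that the factors were bound together. Of 19 DPF3a peaks at the 5 genes, 13 were shared with SMAD4, which is 68.4% against 59.3% (95% Wilson interval 58.9 to 59.7) in the whole list. Of 16 SMAD4 peaks, 13 were shared with DPF3a, 81.3% against 65.9%. All 4 p300 peaks were shared with both factors, against 41.9% of the p300 list with DPF3a and 50.7% with SMAD4. From the other side, 4 of 19 DPF3a peaks (21.1%, list 16.6%) and 4 of 16 SMAD4 peaks (25%, list 22.3%) were shared with p300. The counts are of few peaks and no test was made. Of the 21 sites, 4 were touched by all 3 factors and 10 by DPF3a and SMAD4 only, 5 had DPF3a alone, 2 SMAD4 alone and 0 p300 alone. The 4 sites with p300 were the promoters of SERPINE2, PLAUR and MRPL44 and the PLAU site 2.08 kb upstream, which is close to the start of the longer PLAU transcript.

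The rank of the peaks depended on the measure, and mostly at PLAU. By fold enrichment the DPF3a peaks had a median percentile of 53.5 within their list, the SMAD4 peaks of 43.6 and the p300 peaks of 16.6. By height in reads, an alternative chosen after the data were seen, it was 47.0, 68.7 and 77.8. By −log10 q it was 51.6, 53.4 and 54.1, so the 5 genes as a group held peaks in the middle of each list by this measure. Single peaks moved further. The PLAU SMAD4 peak in intron 1 stood above 1.38% of its list by fold enrichment and above 71.0% by reads. The SERPINB2 peaks moved the other way, from percentiles of 27.8 and 29.9 by fold enrichment to 1.39 and 4.55 by reads.

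**Figure D4:**
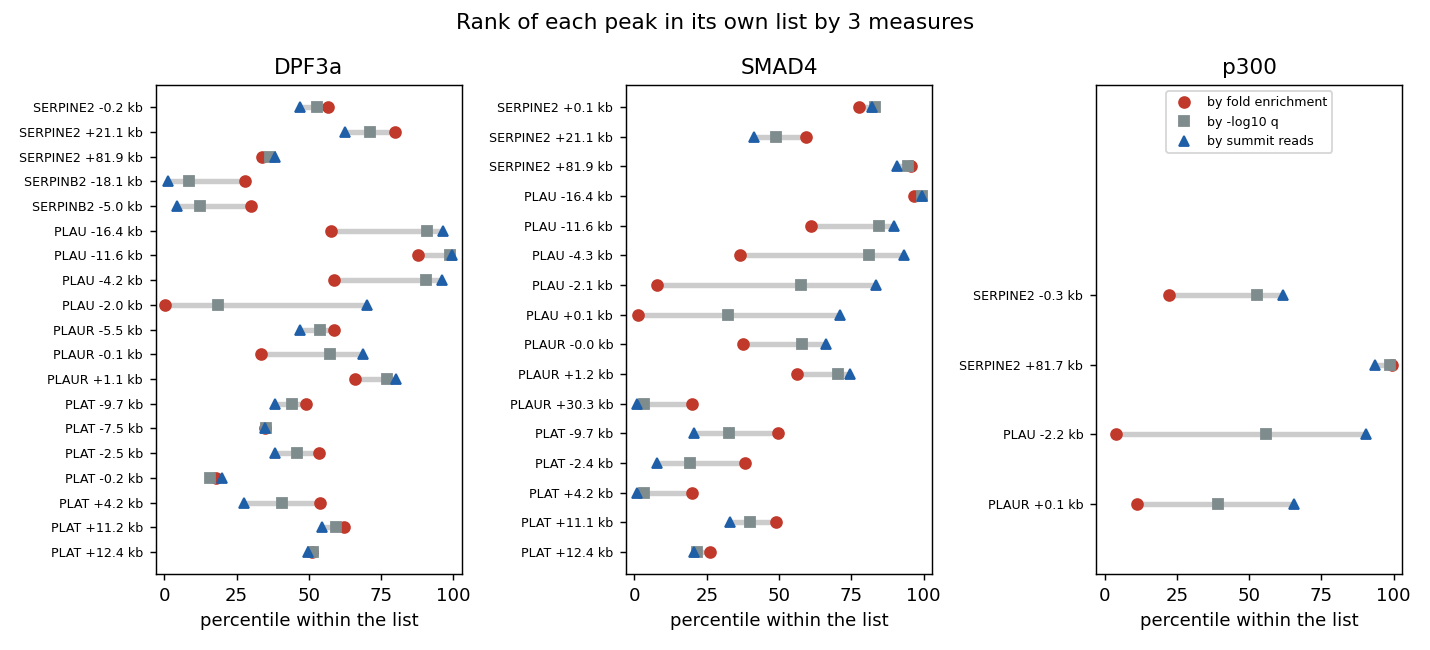
Percentile of each peak within its own list (horizontal axis) by fold enrichment (circles), −log10 q (squares) and summit reads (triangles), 1 row per peak with its gene and distance from the start in kb. The measures differ most at PLAU, where the DPF3a peak 2.0 kb upstream moves from 0.330 to 70.0.

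The searched motifs were then counted around the summits as exact matches on both strands. AP-1 (TGACTCA) was found within 50 bp of 5 of 19 DPF3a summits, against 22.1% (21.7 to 22.4) of the whole DPF3a list. The summits were at PLAU 16.4 and 11.6 kb upstream, PLAT 9.72 and 2.44 kb upstream and SERPINB2 4.97 kb upstream. Within 100 bp the count was 11 of 19, against 34.2% of the list, and within the whole peak 12 of 19, against 43.1%. PLAUR had a match within 100 bp at each of its 3 DPF3a peaks, PLAT at 5 of 7, and SERPINE2 at 0 of 3, nor in the whole of those peaks. SMAD4 summits had AP-1 within 50 bp at 5 of 16, against 15% (14.7 to 15.3) of the SMAD4 list, at PLAU and PLAT only. None of the 4 p300 summits had it, against 3.61% of the p300 list.

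The short SMAD motif CAGAC lay within 50 bp of 4 of 16 SMAD4 summits, against 24.7% of the list, at PLAU 16.4 kb upstream and intron 1, the PLAUR promoter and PLAT 11.1 kb downstream. TEAD (GGAATG) lay at 3 of 19 DPF3a summits (list 12.5%), RUNX (TGTGGTT) at 2 (list 7.04%) and ETS (CCGGAAG) at 1 (list 1.15%). The SMAD palindrome GTCTAGAC, the CRE TGACGTCA and the hypoxia response core ACGTG were at 0 of 19 DPF3a summits (list 0.0641%, 0.151% and 6.58%). The hypoxia core lay near 1 SMAD4 summit, at the PLAUR promoter, and 1 p300 summit, at the SERPINE2 promoter. A match is a stretch of letters and does not show that a factor binds there.

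The 5 genes were set beside 30 other genes of the plasminogen system, among them receptors, cofactors, serpins and integrins. DPF3a peaks were found at 25 of these (83.3%), SMAD4 peaks at 25 (83.3%) and p300 peaks at 21 (70.0%). DPF3a-SMAD4 sites were found at 23 (76.7%) and sites of all 3 factors at 13 (43.3%), which is again near the shares of protein-coding genes. The 13 were LRP1, IGF2R, SERPINI1, SERPINB6, SERPINB8, F12, HABP2, TMPRSS6, ITGAV, ITGB3, ITGB5, FPR2 and DPEP1. ITGB5, which encodes a vitronectin receptor subunit, had 3 such sites in a window of 179.5 kb. PLG, which encodes plasminogen, LRP2, an endocytic receptor, KLKB1, which encodes plasma prekallikrein, and SERPINF2, which encodes the plasmin inhibitor, had no peak in any list. Genes without a peak were common, since 21% of protein-coding genes had no DPF3a, 18.7% no SMAD4 and 35.3% no p300 peak.

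The protein-coding genes of most similar pattern were found from the summed fold enrichment in the window for each factor, as the smallest Euclidean distance over the 3 log2(1 + sum) values. They were CEMP1, SERINC2 and ELFN2 for PLAU (distances 0.0450 to 0.0614), UHRF1, ADAMTS6 and LPAR3 for PLAT (0.0209 to 0.0953) and ACTR6, UCP3 and PCCB for PLAUR (0.0925 to 0.103). For SERPINE2 they were IDUA and SLC26A1, which overlap and hold the same peaks, and ATAD2B (0.0235 to 0.0672), and for SERPINB2 they were FUT9, PYDC2 and S100A12 (0.00305 to 0.00746), the last being 1 of 3 genes at the same distance and taken by symbol. As a check of the labelled cells, the kidney and ccRCC genes PAX8, PAX2, CDH16, CA9, EPAS1, NDUFA4L2 and CD70 each had peaks of DPF3a and of SMAD4. Of these named genes, 6 had a p300 peak. Of 5 genes of other cell types, 2 had a DPF3a peak, 3 a SMAD4 peak and 4 a p300 peak. Among all protein-coding genes the shares with a peak were 79.0%, 81.3% and 64.7% for DPF3a, SMAD4 and p300. These counts therefore say little about the identity of the cells. Peaks show binding and not expression, which was not measured in these files.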

How the data were processed

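ChIP-seq reads of 2 libraries for each of DPF3a, SMAD4 and p300 were processed by the authors with cutadapt, Bowtie2 2.3.5.1 (hg38), a mapping quality minimum of 30, removal of mitochondrial reads and duplicates (Picard), and MACS2 2.2.5. How replicates were combined is not stated, and no control library is named. The deposited score, −log10 p and −log10 q of each peak, and its fold enrichment, a ratio of summit to local background reads each plus 1, were used as deposited by the authors, who kept scores over 50. Summit reads and background were computed from the fold enrichment and −log10 p. They gave back −log10 p within 8.6e-04, and backgrounds followed steps of 0.02 reads, the step of fragments of 200 bp in 10 kb. This gave depths of 15.8 M (DPF3a), 30.4 M (SMAD4) and 27.6 M (p300) reads, with an assumed effective genome of 2.7 Gb.

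Genes were those of GENCODE 44, and a promoter was the 1000 bp before and the 100 bp after a start. Overlaps were checked against bedtools 2.31.1 and the code was tested on simulated data. Analyses used Python 3.11.15. Percentiles within a list gave tied peaks their average rank, so a peak said to stand above a share of its list may tie with some of it. Every peak of the 5 genes was reported. The kidney marker list held 1 further gene, which is not reported here. The genes and lists were chosen with earlier results of these data known. Alternatives were other flanks, score limits, overlap rules, rank measures and motif windows.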

Additional observations from a re-analysis of the deposited data

How the results depend on the processing

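With the gene body alone in place of 20 kb flanks, the 5 genes held 7 DPF3a, 8 SMAD4 and 1 p300 peaks (1 gene with p300), and with 50 kb flanks 39, 33 and 13. A score over 200 left 5 DPF3a peaks at 3 genes, 8 SMAD4 peaks and 1 p300 peak at 1 gene. PLAT then had 0 DPF3a and 0 SMAD4 peaks, whereas PLAU had 3 DPF3a and 4 SMAD4 peaks. A score over 100 left 1 p300 peak at 1 gene, 0 DPF3a peaks shared with all 3 factors and 1 SMAD4 peak shared with p300. The share of protein-coding genes with a DPF3a, SMAD4 or p300 peak was 69.1%, 74.6% and 54.7% with flanks of 5 kb, 62.5%, 77.5% and 24.4% with a score over 100, and 60.2%, 59.7% and 42.7% over all 62663 annotated genes. The median percentile at the 5 genes was 51.6, 53.4 and 54.1 by −log10 q, and 47.0, 68.7 and 77.8 by summit reads. With flanks of 5 kb it was 37.4 for SMAD4 and 11 for p300. The AP-1 count at DPF3a summits was 11 within 100 bp and 12 in the whole peak. Sharing stayed within 1.5 times under an overlap of 1 bp and under summits within 200 bp. No paired analysis was possible because each factor has 1 list for both replicates, which also leaves no replicate to leave out. Counting error is relatively largest for the lowest peaks, such as those of 11 and 12 DPF3a reads at SERPINB2.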

Other observations

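Peaks beyond the 20 kb flanks were left out by the rule but were close in several cases. At PLAU all 3 factors had summits 21.3 to 21.4 kb from the gene, with 115 DPF3a reads, 73 SMAD4 reads and 39 p300 reads. At PLAT, the nearest p300 summit lay 21.9 kb from the gene, with 19 reads, beside a SMAD4 peak of 46 reads at 22.0 kb and a DPF3a peak of 16 reads at 21.6 kb. These summits lay close to the start of the neighbouring gene AP3M2. At SERPINE2, peaks of 85 DPF3a reads and 115 SMAD4 reads lay 32.9 and 29.7 kb from the gene. SERPINB2 had no p300 summit within 50 kb, the nearest being 66.4 kb away, and its nearest SMAD4 summit outside the window was 45.4 kb from the gene.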
